A study of Mus musculus with 8 samples.

Results

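The histone genes were examined in single endocardium cells of the mouse embryo at E8.5, with and without Sox17. Members were chosen by name from the array: genes named Hist1h, Hist2h, Hist3h or Hist4h formed the replication-dependent class, and genes named H2af or H3f3, together with H1f0, formed the variant class. This gave 58 genes of the 35526 gene names on the array, 46 replication-dependent and 12 variant, measured by 71 of 55681 probes. Where a gene had several probes, the one with the highest mean signal over the 8 arrays was used, and names are those of the array design. All 58 genes had a usable probe on all 8 arrays, so that none was lost to a filter.

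Each array held the amplified cDNA of 1 cell from embryos with 9 somites. Of the cells, 4 were WT (Mesp1+/+_Sox17flox/flox, in which the floxed alleles are intact because no Cre is present) and 4 were Sox17 KO (Mesp1Cre/+_Sox17flox/flox). Mesp1-Cre acts in nascent mesoderm, so that in KO embryos the deletion is not restricted to the endocardium, and cells were assigned to the endocardium by PCR of marker genes. The labels do not name the embryo of each cell, so that each genotype counted as 1 sample: values are given per cell, each difference is read beside the SD of the cells, and no test was made.

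Core histones H2A, H2B, H3 and H4 form the nucleosome, around which DNA is wrapped, and linker histone H1 binds the DNA that enters and leaves it. The replication-dependent genes lie in clusters, have no introns and are transcribed in S phase, and their mRNAs end in a conserved stem-loop in place of a poly(A) tail. Variant genes as a rule stand alone, are transcribed throughout the cell cycle as polyadenylated mRNAs, and supply histones that are placed in chromatin outside replication. Among the variants here, H2afj lies near Hist4h4 on chromosome 6, and H2afx mRNA is also known without poly(A). The cDNA of these cells was primed with an oligo(dT) primer, which pairs with poly(A), and the part of this step in the values below was not tested.

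Depth differed between cells. The scanner software called 25.5% to 39.9% of all gene names well above background per cell, with a median of 34.1%. The 2 Sox17 probes were well above background in 0 of 8 cells, WT included, so that they do not check the genotype. Of 10 endothelial or endocardial markers, 6 to 10 were well above background per cell, against 3 to 7 of 9 cardiomyocyte markers, 2 of 3 smooth muscle markers in every cell, 0 or 1 of 5 blood markers and 0 of 5 endoderm markers. All arrays were on 1 slide. Levels are log2 signals, with the arrays brought to the same 50th percentile over 7570 probes that were well above background on every array. Signals under 50 were raised to this floor, which is 5.64 on the log2 scale. Values at the floor have no order, and a probe can be well above background and still lie at it.

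Several probes carry almost the same letters, which decides what they can distinguish. The probes of 8 replication-dependent H2A genes and of the variant H2afj lie at or over the end of the H2A coding region, and each shared at least 34 bases in a row with another of them. The probes of the following genes are shown because the levels of this H2A set turn on them, with capitals for the run shared with the Hist1h2ah probe (for Hist1h2ah, the run shared with Hist2h2ac).
Hist1h2ah: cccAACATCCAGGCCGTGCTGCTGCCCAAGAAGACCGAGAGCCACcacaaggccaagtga
Hist2h2ac: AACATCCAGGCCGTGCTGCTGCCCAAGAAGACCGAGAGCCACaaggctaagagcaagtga
Hist1h2af: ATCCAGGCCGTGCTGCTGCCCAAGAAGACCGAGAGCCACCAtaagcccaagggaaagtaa
Hist1h2ak: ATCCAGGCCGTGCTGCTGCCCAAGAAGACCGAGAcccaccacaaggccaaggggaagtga
Hist2h2aa2: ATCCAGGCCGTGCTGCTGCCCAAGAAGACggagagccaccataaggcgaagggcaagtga
H2afj: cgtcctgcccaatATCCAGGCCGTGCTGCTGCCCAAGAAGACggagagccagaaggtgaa
On build mm9 the array design places these probes at chr13:22127035-22127094 (minus strand), chr3:96024378-96024437 (minus), chr13:23626113-23626172 (plus), chr13:21845304-21845363 (minus), chr13:51298057-51298116 (minus) and chr6:136757181-136757240 (plus), in the order shown. The gene Hist2h2aa2 itself is on chromosome 3. The remaining members of the set are Hist1h2ag, Hist1h2an and Hist1h2ao.

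Other probes reach into the stem-loop at the end of replication-dependent histone mRNAs. The letters of the histone stem-loop motif, searched on both strands, were present in 9 of 55681 probes (0.0162%), 7 of them on the strand of the probe, and 5 of these 7 were probes of replication-dependent genes. Their stretches around the stem-loop are shown because the levels of these genes differ from those of the H2A set, with capitals for the letters matched.
Hist1h3a: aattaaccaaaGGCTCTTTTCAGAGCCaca
Hist1h3g: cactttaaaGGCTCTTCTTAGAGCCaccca
Hist1h3i: ataacaaaaGGCTCTTTTCAGAGCCccctc
Hist1h4m: caactaaaGGCCCTTTTCAGGGCCatccaa
Hist2h2bb: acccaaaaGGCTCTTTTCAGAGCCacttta
The probes of Hist1h2ab and Hist1h2ae hold only a side of the stem-loop with its loop. These shorter motifs overlap the whole one, and on either strand the 5′ side is in 53 probes of the array (0.0952%) and the 3′ side in 19 (0.0341%).

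Variant genes were detected more often than replication-dependent genes in every cell. In WT cells 1 to 4, 7, 9, 9 and 10 of 12 variant genes were well above background, against 18, 23, 17 and 21 of 46 replication-dependent genes. In KO cells 1 to 4, the counts were 8, 7, 9 and 9 of 12 against 21, 19, 21 and 27 of 46. In percent, the variant class had a median of 75% over the 8 cells, from 58.3% to 83.3%, and the replication-dependent class a median of 45.7%, from 37.0% to 58.7%. Over all genes the percentages were 25.5, 36.4, 32.1 and 39.9 in WT cells and 31.6, 28.8, 37.2 and 36.1 in KO cells, so that both classes lay above that background in all 8 cells. The variant percentage was the higher of the 2 classes in 8 of 8 cells, by at least 16.3 percentage points. The SD between cells was 6.82 points for the replication-dependent and 8.91 points for the variant class, and the WT and KO cells overlapped in both. A probe's own response to its target and the abundance of the target cannot be told apart in such counts.

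**Figure D1:**
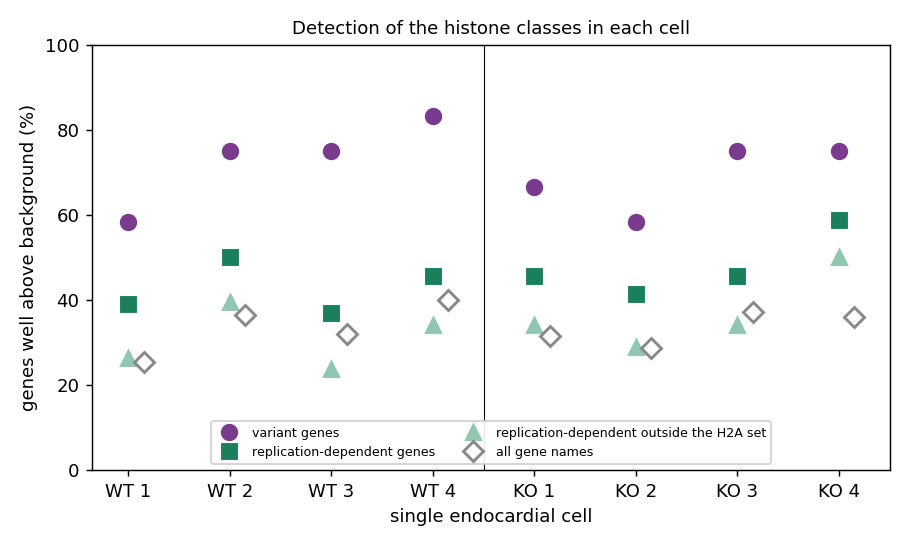
Percentage of genes well above background (y axis) in each of 8 single cells (x axis) for the variant class, the replication-dependent class, the replication-dependent class without the H2A set, and all gene names. Variant genes lie between 58.3% and 83.3% in every cell, above replication-dependent genes at 37.0% to 58.7%, and without the H2A set the replication-dependent genes lie above all gene names in 5 of 8 cells.

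The replication-dependent percentage rested in part on the H2A set. Without its 8 genes, 9 to 19 of the other 38 replication-dependent genes were well above background, with a median of 34.2%, and this was above the percentage of all genes in 5 of 8 cells. Counting each set of probes that share at least 20 bases once left 35 genes with a median of 37.1%. The variant class kept the higher percentage in 8 of 8 cells under both counts, which were chosen after seeing the data. The variant counts include H2afj, whose probe belongs to the H2A set, in all 8 cells. Without H2afj, 6 to 9 of 11 variants were well above background, with a median of 72.7%. This was above the replication-dependent class in 8 of 8 cells, with or without the H2A set. By gene, 13 of 46 replication-dependent genes were well above background in 0 cells, 15 in all 8 and 18 in some of them, and of 12 variants 2 were in 0, 7 in all 8 and 3 in some. In at least 6 cells, 18 of 46 replication-dependent and 8 of 12 variant genes were well above background, against 25.6% of all genes. Over all genes, 42.9% were in 0 cells and 17.6% in all 8. A level above the floor was reached in no cell by 21 of 46 replication-dependent and 3 of 12 variant genes, against 59.1% of all genes.

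**Figure D2:**
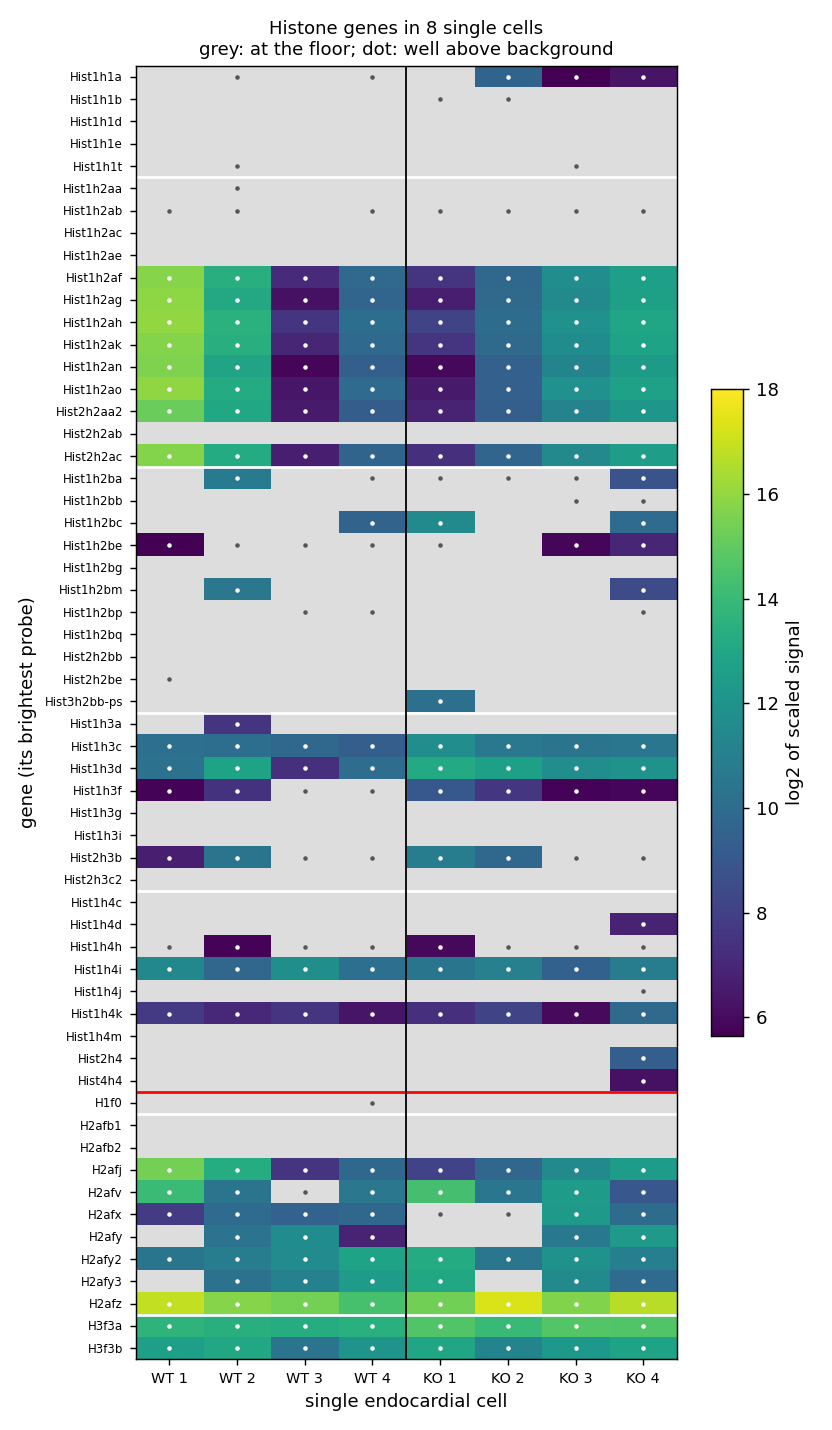
Levels of the 58 histone genes (rows, each by its brightest probe) in the 8 cells (columns), as log2 of the scaled signal; grey is the floor, dots mark values well above background, white lines separate histone types, the red line separates replication-dependent (above) from variant genes, and the black line separates WT from KO cells. Colours are to be compared along a row: the H2A set changes together from cell to cell, while 21 replication-dependent rows are grey in every cell.

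The 9 probes of the H2A set, which detect the core histone that pairs with H2B, differed far more between cells than between genotype means. WT cells 1 to 4 had median levels of 15.70, 13.25, 6.66 and 9.76, and KO cells 1 to 4 of 7.35, 9.72, 11.57 and 12.64. WT cell 1 was the highest and WT cell 3 the lowest, so that the KO cells lay within the range of the WT cells. The highest and lowest cells were 9.04 apart on the log2 scale, a 526-fold range of scaled signal. The KO mean was lower than the WT mean by a log2 difference of -1.02, against a pooled SD between cells of 3.25. This difference rested on single cells: all 9 genes turned to a higher KO mean without WT cell 1, by 0.25 to 0.55, and all 9 were at least 5-fold lower in KO cells without WT cell 3.

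The 9 probes followed each other closely across the cells. For the 36 pairs of probes, Pearson's r over the 8 cells was from 0.988 to 0.9997, given as a description, since all points share the same 8 arrays and 25 of the pairs share at least 20 bases. The spread between the 9 probes in a cell, after each was centred on its own mean, had an SD of 0.11 in WT cell 2 to 0.52 in KO cell 1. Probes that read the same mRNA and genes that vary together cannot be told apart here. The set is therefore read as 1 measurement rather than 9.

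Probes that lie elsewhere on 2 of these genes gave different values. The other probe of Hist1h2ak, at chr13:21845637-21845696 on mm9, was at 10.01 and 8.62 in WT cells 1 and 2, at 8.58 and 8.87 in KO cells 3 and 4, with the remaining 4 cells at the floor. Those 4 cells above the floor were the 4 with the highest levels of the H2A set. The other probe of H2afj, a variant H2A with a polyadenylated mRNA, left the floor in KO cell 1 (12.36) and KO cell 3 alone. KO cell 1 was the second lowest for the set, so that the 2 probes of H2afj ordered the cells differently. The other 5 replication-dependent H2A genes (Hist1h2aa, Hist1h2ab, Hist1h2ac, Hist1h2ae and Hist2h2ab) were at the floor in all 8 cells, although Hist1h2ab was well above background in 7.

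**Figure D3:**
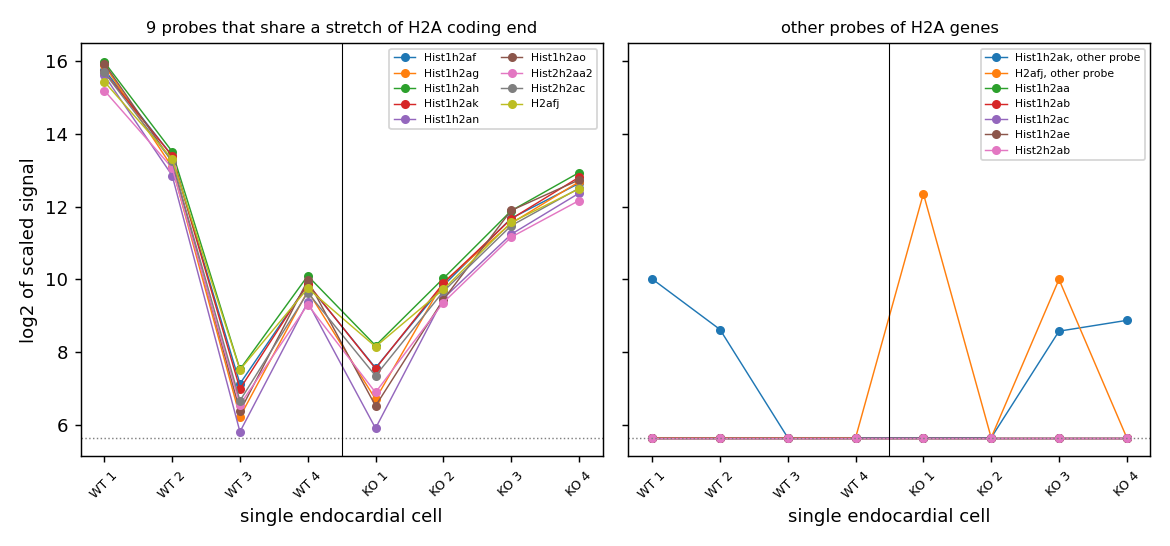
Log2 of scaled signal (y axis) in 8 single cells (x axis) for the 9 probes of the H2A set (left) and for other probes of H2A genes (right); lines join the values of 1 probe and the dotted line is the floor of 5.64. The 9 lines of the left panel run together from a median of 15.70 in WT 1 to 6.66 in WT 3, and in the right panel only the other probes of Hist1h2ak and H2afj leave the floor.

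The cells were also compared by the number of other genes detected. WT cell 1, with the highest H2A set, had the lowest share of all genes well above background (25.5%) and the fewest of 25 S phase and G1/S genes (14). The next 3 cells by the H2A set, WT cell 2, KO cell 4 and KO cell 3, had 36.4%, 36.1% and 37.2% of all genes well above background, exceeded by WT cell 4 alone (39.9%). WT cell 3, with the lowest H2A set, had 22 of these 25 genes, as did WT cell 4 and KO cell 3, while WT cell 2 had 19 and KO cells 1, 2 and 4 had 17, 16 and 20. Of 25 G2 and M phase genes, WT cells had 10, 23, 7 and 13 well above background and KO cells 6, 8, 7 and 13, so that WT cell 2 stood apart. With 8 cells these counts are given side by side only, and no relation was tested.

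H2B, the partner of H2A in the nucleosome, was detected in every cell, but each of its genes left the floor in at most 3 cells. Of 11 replication-dependent H2B genes, 1 to 6 were well above background per cell, with 6 in KO cell 4. The median over cells was 27.3% well above background and 9.1% above the floor, beside 34.1% and 21.2% of all genes. Hist1h2bc left the floor in 3 cells, WT cell 4 (9.58), KO cell 1 (11.55) and KO cell 4 (9.96). Hist1h2ba, known as an H2B of the testis, was at 10.73 in WT cell 2 and 8.79 in KO cell 4, and Hist1h2bm was at 10.57 and 8.49 in the same 2 cells, both at the floor elsewhere, although Hist1h2ba was well above background in 6 cells. These 2 cells also had the most cardiomyocyte markers well above background, 7 of 9 each, and the highest levels of the smooth muscle marker Acta2, at 13.80 and 12.86, and the part of this in the H2B values was not tested. Hist3h2bb-ps, annotated as a transcribed pseudogene, reached 10.21 in KO cell 1 alone. Hist1h2be was well above background in 7 cells but never above 6.97. The H2B values thus came from 1 to 3 cells each, without a division by genotype. Of the 5 replication-dependent H1 genes, which encode linker histones, Hist1h1a alone left the floor, at 9.60, 5.67 and 6.27 in KO cells 2, 3 and 4.

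H3 had members of both classes well above background in all 8 cells, and several of its probes were higher in KO cells. H3f3a, a source of the replication-independent histone H3.3, was at 13.69, 13.46, 13.28 and 13.47 in WT cells and at 14.64, 13.95, 14.70 and 14.62 in KO cells. All 4 KO cells lay above all 4 WT cells, with a log2 difference of 1.004 against a pooled SD of 0.28, a 2.01-fold higher mean. Of the 8485 genes that all 4 cells of a genotype, WT or KO, had well above background, 2.7% had all KO cells above all WT cells, and the median log2 difference of these genes was 0.06. The H3f3a probe was placed by the array design on chr7:17232732-17232791 (mm9, minus strand), whereas the gene is on chromosome 1. The probe is shown with a probe outside the histone names, NAP095021-001 (chr14:21675237-21675296, minus strand), whose values ran alike, and capitals mark the run of 22 bases shared by both.
H3f3a: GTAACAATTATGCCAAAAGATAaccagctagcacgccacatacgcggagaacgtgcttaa
NAP095021-001: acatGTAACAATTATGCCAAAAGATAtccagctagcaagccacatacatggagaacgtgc
The NAP095021-001 probe was at 10.22, 11.88, 11.82 and 12.01 in WT cells and at 12.95, 12.65, 13.26 and 13.25 in KO cells, with no overlap. A further probe that shares 20 bases with H3f3a, annotated as ENSMUST00000120752, was at 13.74 to 14.26 in WT cells and 14.59 to 15.16 in KO cells. The other H3f3a probe, placed on chromosome 8, was at 13.49, 12.87, 11.86 and 12.97 in WT cells and at 13.63, 13.87, 13.60 and 13.20 in KO cells, where KO cell 4 lay below WT cell 1.

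The separation of H3f3a depended on the scaling. The KO mean was higher under all 7 settings of scaling, floor and background correction, with log2 differences from 0.41 to 1.004, but the 2 genotypes were separated under 4 of them. Among those 4 are the floors of 10 and 200, which leave the H3f3a values unchanged and so repeat the main setting. The other H3f3a probe separated the genotypes under 1 of 7 settings, ENSMUST00000120752 under 5 and NAP095021-001 under 6. The counts for ENSMUST00000120752 and NAP095021-001 also include both floors, which leave their values unchanged. H3f3b, the other gene that encodes H3.3, was at 12.62, 13.05, 10.38 and 12.02 in WT cells and 12.92, 11.23, 12.25 and 12.83 in KO cells. Its genotypes overlapped, with a log2 difference of 0.29 against a pooled SD of 0.99. The difference turned to a lower KO mean with the 75th percentile, with quantile normalization and without WT cell 3. This H3f3b probe was placed on chromosome 3, whereas the gene is on chromosome 11. The H3f3b probe on chromosome 11 left the floor in WT cell 2 alone, at 7.52. A further H3f3b probe, placed on chromosome 1, ran from 7.51 in WT cell 4 to 11.12 in KO cell 1.

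Among the 8 replication-dependent H3 genes, 4 were well above background in all 8 cells and 3 of the other 4 in none. Over all genes these shares were 17.6% and 42.9%. Hist1h3c was at 10.14, 10.10, 9.83 and 9.39 in WT cells and at 11.71, 10.60, 10.42 and 10.51 in KO cells. It was the only 1 of 18 replication-dependent genes well above background in all 4 cells of a genotype whose KO cells all lay above the WT cells, with a log2 difference of 0.94 and a pooled SD of 0.49, and H3f3a was the only 1 of 7 such variants, beside the 2.7% of all such genes. None of the 18 or the 7 had all KO cells below the WT cells, as 0.601% of all such genes did. The Hist1h3c genotypes stayed apart under 4 of the 7 settings, with log2 differences from 0.56 to 0.97. Among those 4 are the floors of 10 and 200, which leave the Hist1h3c values unchanged. The separation was lost with the 75th percentile, without scaling and with quantile normalization. Its probe begins just before the start of the H3 coding region and is shown with that of Hist1h3f, with capitals for the 36 bases they share.
Hist1h3c: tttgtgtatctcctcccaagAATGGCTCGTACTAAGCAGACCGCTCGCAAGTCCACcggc
Hist1h3f: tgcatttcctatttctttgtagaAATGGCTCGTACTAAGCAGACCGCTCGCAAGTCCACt
These probes lie at chr13:23837328-23837387 (minus strand) and chr13:23636330-23636389 (plus strand) on mm9. Despite the shared run, Hist1h3f was at 5.77, 7.45, 5.64 and 5.64 in WT cells and at 9.06, 7.58, 5.75 and 5.86 in KO cells, so that its genotypes overlapped. Pearson's r of the 2 probes over the 8 cells was 0.79, as a description of probes that share both letters and arrays.

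Hist1h3d had the largest log2 difference of the 58 histone genes. Its levels were 10.27, 12.83, 7.32 and 10.07 in WT cells and 13.20, 12.67, 11.68 and 11.96 in KO cells. The difference of 2.25, a 4.77-fold higher KO mean, exceeded the pooled SD of 1.66, but WT cell 2 lay among the KO cells. It passed 5-fold without WT cell 2 (3.16), without KO cell 3 (2.49) and without KO cell 4 (2.39), but fell to 1.32 without WT cell 3 and to 1.56 with quantile normalization. Hist2h3b was at 6.67 and 10.40 in WT cells 1 and 2, at 10.84 and 9.83 in KO cells 1 and 2 and at the floor in cells 3 and 4 of both genotypes, so that it did not divide by genotype.

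**Figure D4:**
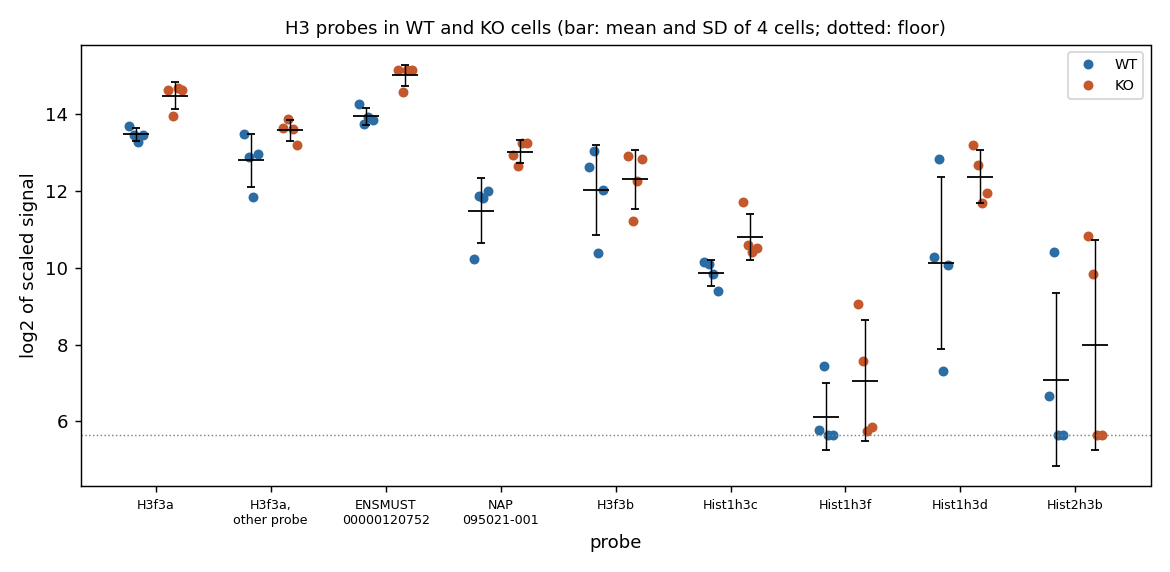
Log2 of scaled signal (y axis) of H3 probes in WT and KO cells, with 1 point per cell and bars for the mean and SD of 4 cells; the dotted line is the floor of 5.64. KO points lie above WT points without overlap for H3f3a, Hist1h3c, ENSMUST00000120752 and NAP095021-001, and overlap for the other probe of H3f3a and for H3f3b, Hist1h3f, Hist1h3d and Hist2h3b.

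H4, the partner of H3, was carried by few probes. Of 9 replication-dependent H4 genes, 3 were well above background in every cell except KO cell 4, which had 7. The median of 33.3% was near the 34.1% of all genes. In KO cell 4 alone, Hist2h4 reached 9.40, Hist1h4d 6.89 and Hist4h4 6.19. Hist1h4k was at 7.75, 7.09, 7.57 and 6.33 in WT cells and 7.33, 8.18, 5.96 and 9.90 in KO cells, with the highest value again in KO cell 4. Hist1h4h was well above background in all cells but not above 5.93.

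The remaining H4 gene name with a level in all cells, Hist1h4i, was read by a probe that the array design does not map. It shares a run of 21 bases with a probe of Galns on the same strand and with a probe of Slc10a1 on the opposite strand, and is shown with that of Galns, capitals marking the run.
Hist1h4i: gtgtTGGGATTAAAGGCGTGCGCCAcaaga
Galns: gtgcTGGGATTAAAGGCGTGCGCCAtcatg
The probe was at 11.40, 9.74, 11.80 and 10.15 in WT cells and 10.45, 11.01, 9.46 and 10.90 in KO cells, with overlap. The other probe of Hist1h4i, mapped to chromosome 13, left the floor in KO cell 4 alone, at 8.64, as did the H4 genes above. Which gene gave the signal of the unmapped probe cannot be told apart, so that a level in all cells is not established for Hist1h4i. The counts of the replication-dependent class above include Hist1h4i by this probe.

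Genes whose probes hold stem-loop letters stayed at the floor. Of the 7 probes shown or named above, only that of Hist1h3a left it, at 7.55 in WT cell 2, which is 1 of 56 pairs of gene and cell (1.79%). For the other 39 replication-dependent genes, 125 of 312 pairs (40.1%) were above the floor, and for the 31 of these outside the H2A set, 61 of 248 (24.6%). Well above background were 8 of 56 pairs for the probes with stem-loop letters, 7 of them from Hist1h2ab, and 95 of 248 (38.3%) for the 31 genes. Over all genes, the median per cell was 21.2% above the floor (17.9% to 23.2%) and 34.1% well above background. The 31 genes thus lay near the share of all genes. A probe that shares 20 to 22 bases around the stem-loop with Hist1h3a, Hist1h3i and Hist2h2bb, annotated as ENSMUST00000078756, was also at the floor in all 8 cells. Position of the probe and identity of the gene cannot be told apart in this comparison, since each gene had its own probe.

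The variants of H2A spanned levels from steady to present in part of the cells. H2afz, which encodes H2A.Z, a variant found at gene starts, was at 16.85, 15.77, 15.43 and 14.42 in WT cells and at 15.38, 17.28, 15.64 and 16.67 in KO cells. The genotypes overlapped, with a log2 difference of 0.63 and a pooled SD of 0.95, which turned to -0.06 with quantile normalization. This probe was placed on chromosome 6 and the gene is on chromosome 3. The H2afz probe on chromosome 3 ran from 11.55 in KO cell 1 to 16.23 in WT cell 1, with a log2 difference of -0.07. H2afv, the second gene for H2A.Z, was at 14.06, 10.41, 5.64 and 10.56 in WT cells and 14.37, 10.48, 12.47 and 8.97 in KO cells. Its difference of 1.41 lay within the pooled SD of 2.96. The difference passed 5-fold without WT cell 1 (2.71) but turned to -0.10 without WT cell 3. The other H2afv probe left the floor in KO cell 4 alone, at 7.46.

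H2afx encodes H2A.X, which is phosphorylated at DNA breaks, and its mRNA is known in forms with and without poly(A). It was at 7.82, 9.94, 9.54 and 9.75 in WT cells, at the floor in KO cells 1 and 2, and at 12.34 and 10.03 in KO cells 3 and 4. The KO cells thus lay on both sides of the WT cells, with an SD of 3.33 against 0.98 in WT. H2afx was well above background in all 8 cells, KO cells 1 and 2 included.

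The macroH2A genes encode a histone with a large added domain, known from silent chromatin. H2afy was at the floor in WT cell 1 and KO cells 1 and 2 and between 6.84 and 12.29 in the other 5 cells. The other H2afy probes stayed at the floor, save for 1 of them in WT cell 2, at 7.58. H2afy2 was above the floor in all cells, at 10.43, 10.82, 11.61 and 12.81 in WT and 13.27, 10.49, 11.92 and 10.97 in KO cells. H2afy3, annotated as a transcribed pseudogene, was at the floor in WT cell 1 and KO cell 2 and between 9.94 and 13.00 in the other 6 cells. Its probe overlaps that of H2afy2 by 15 bases, shown in capitals.
H2afy2: tgacgcctaaaatatTTGTAACTACACCTA
H2afy3: TTGTAACTACACCTAaaagggtttttgctt
The 2 cells at the floor for H2afy3 were 2 of the 3 lowest for H2afy2, and Pearson's r over the 8 cells was 0.86, given as a description of 2 probes that share letters and arrays. The genotypes overlapped for all 3 macroH2A genes, with log2 differences of -0.06, 0.25 and 0.16. The linker variant H1f0 and the short H2A variants H2afb1 (now H2al2a) and H2afb2 (now H2ab2), known from testis, were at the floor in all 8 cells, and only H1f0 was well above background, in 1 cell.

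Between genotypes, none of the 46 replication-dependent and none of the 12 variant genes differed by 5-fold or more in the mean (0 of 46 and 0 of 12). Over all 35526 genes, 1.84% were at least 5-fold higher and 1.86% at least 5-fold lower in KO cells, and of the genes well above background in all 4 cells of a genotype 4.62% and 3.57%. The median log2 difference was 0.00 for the replication-dependent class, where 21 genes were at the floor in every cell, and 0.08 for the variant class, beside 0.00 for all genes. Of the 25 replication-dependent genes that left the floor, 13 had a higher and 12 a lower KO mean, and 8 of the lower ones belong to the H2A set. Of the 9 such variants, 6 were higher and 3 lower. Among the 18 and 7 genes well above background in all 4 cells of a genotype, the difference exceeded the pooled SD for 2 replication-dependent genes, Hist1h3c and Hist1h3d, and for 1 variant, H3f3a, against 1736 of 8485 over all genes. Hist1h1a passed 5-fold with a floor of 10, and Hist1h2bc passed it without WT cell 4, without KO cell 2 or without KO cell 3.

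**Figure D5:**
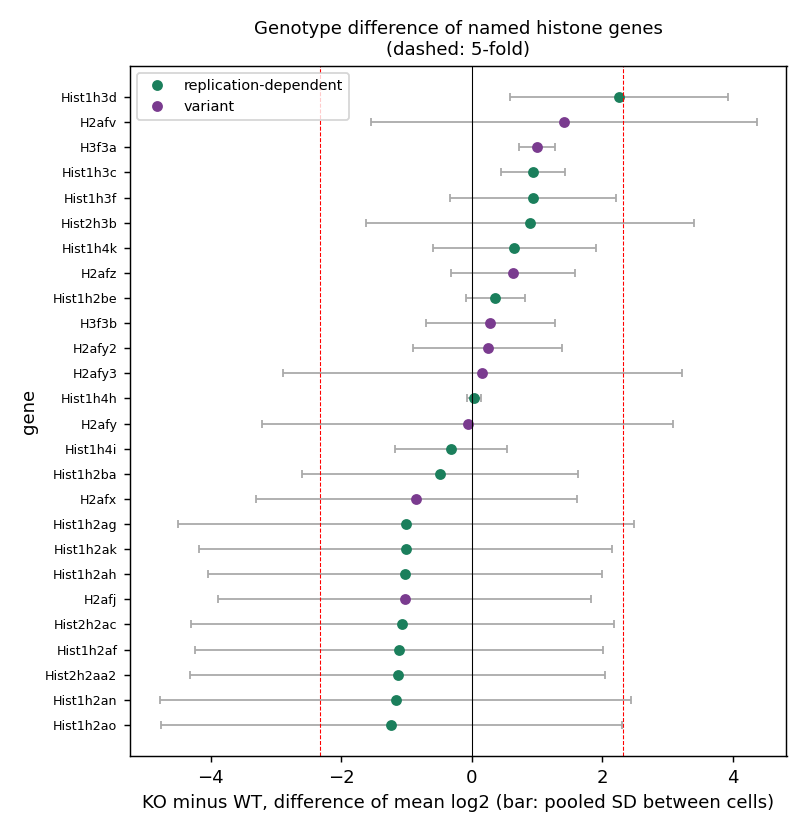
KO minus WT difference of mean log2 levels (x axis) for the named histone genes that left the floor (y axis), with bars for the pooled SD between cells; dashed lines mark 5-fold. No gene passes 5-fold, the bars of the H2A set are among the widest, and the differences of H3f3a (1.004), Hist1h3c (0.94) and Hist1h3d (2.25) exceed their bars.

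Genes that process or carry histones varied in detection, with 2 of 12 processing genes and 7 of 24 chaperone genes well above background in all 8 cells. Over all genes this share was 17.6%. Of 12 genes for the 3′ end processing and transcription of replication-dependent histone mRNA, 2 to 8 were well above background per cell. Their median of 33.3% was near the 34.1% of all genes. Slbp, which binds the stem-loop, was at 10.41 in WT cell 4 and at 9.00, 7.02 and 9.05 in KO cells 1, 3 and 4, and did not leave the floor in WT cells 1 to 3 and KO cell 2, which include the cells with the highest and the lowest H2A set. Npat, the coactivator of these genes, and Lsm11 of the U7 particle were at the floor in all cells, Lsm10 of the same particle was at 13.04 in KO cell 4 alone, and Casp8ap2 at 7.74 in WT cell 4 alone. Of this list, 1 gene (Cpsf3) was at least 5-fold higher and 0 lower in KO cells, beside 1.84% and 1.86% of all genes. Over genes well above background in all 4 cells of a genotype, these shares were 4.62% and 3.57%.

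Of 24 histone chaperone and exchange genes, 9 to 19 were well above background per cell, a median of 66.7% beside 34.1% of all genes. Their median log2 difference was 0.00. In KO cells, 5 were at least 5-fold higher (Daxx, Nasp, Chaf1a, Cabin1 and Ubn2) and 3 at least 5-fold lower (Chaf1b, Nap1l1 and Rbbp4). Over all genes these shares were 1.84% and 1.86%, and over genes well above background in all 4 cells of a genotype 4.62% and 3.57%. Most of all genes are at the floor in every cell and cannot differ, whereas 22 of the 24 were detected in some cell. Daxx, a chaperone for H3.3, was near the floor in WT cell 1 (5.74), at it in WT cells 2 to 4, and at 14.73, 6.21, 14.74 and 13.26 in KO cells, so that the genotypes did not overlap, as for 2.7% of the genes well above background in all 4 cells of a genotype. They were separated under 4 of 7 settings. Atrx, its partner, was at 10.51 and 8.62 in WT cells 3 and 4 and at the floor elsewhere, and Hira and Asf1a, further H3 chaperones, were at the floor in all cells. Nasp, which carries H3 and H4, was at 10.95 and 12.48 in WT cells 2 and 4 and at 12.71, 14.24, 12.40 and 12.86 in KO cells, and at the floor in WT cells 1 and 3. Asf1b left the floor in 4 cells, at 5.95 and 11.13 in WT cells 2 and 4 and at 9.08 and 12.41 in KO cells 2 and 3.

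The subunits of CAF-1, which places H3 and H4 on replicated DNA, differed in sign, with a log2 difference of 3.61 for Chaf1a (pooled SD 2.43) and of -4.66 for Chaf1b (pooled SD 3.46). Chaf1a was at 12.004 and 9.83 in WT cells 3 and 4, at the floor in WT cells 1 and 2, and at 13.19, 10.56, 12.83 and 10.97 in KO cells. Chaf1b was at 16.48, 13.48, 8.93 and 9.14 in WT cells and at 5.64, 5.67, 12.25 and 5.85 in KO cells, so that KO cell 3 alone overlapped the WT cells. Outside the names that chose the members, Cenpa, the H3 variant of centromeres, was at 9.82 in WT cell 4, at 11.58, 12.53 and 7.98 in KO cells 1 to 3 and at the floor in the others, and the linker variant H1fx was at the floor in all cells.

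The genes also differ in where they lie and in their promoters. By the RefSeq table (GRCm38.p6), 36 of the 46 replication-dependent genes are on chromosome 13 and 8 on chromosome 3, with 1 each on chromosomes 6 and 11, whereas the 12 variants lie on 10 chromosomes. Promoter stretches around the gene start were given for 50 of the 58 genes. The octamer ATTTGCAT, on either strand, was in 6 of 8 H2B and 6 of 13 H2A promoters and in 0 of the 19 H1, H3 and H4 promoters, 12 of 40 in all, against 1 of 10 variant promoters and 570 of 32851 of all promoters (1.74%). The letters TATAAA were in 24 of 40 replication-dependent and 1 of 10 variant promoters, against 13.6% of all. The letters CCAAT were in 34 of 40 and 7 of 10, against 37.4% of all. Neighbouring H2A and H2B genes that start back to back share promoter sequence, so that these counts are not independent, and a match is a description and not a site.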

How the data were processed

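Single endocardium cells were profiled on 1-colour Agilent arrays (design 028005, probes annotated on mm9). The authors deposited the scanner output of Agilent Feature Extraction 12.0.2.2, whose intensity values were background-subtracted within each array and not normalized between arrays. Cardiomyocyte arrays were not analysed here. Control and outlier spots did not enter, replicate spots were averaged per probe, and 386 of 55681 probes not usable on all 8 arrays were dropped, which left 55295. A probe counted as well above background if the scanner software called over 50% of its spots so. Signals were multiplied so that all arrays had 1 value, their mean, of the 50th percentile over 7570 probes (those well above background throughout), a floor of 50 was set, and log2 was taken. No probe was saturated.

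Probes were named in RefSeq (GRCm38.p6, names only) by accession for 64 of the 71 histone probes and by name for 7. Genes named are all variants, replication-dependent genes well above background in at least 6 cells, and the 5 each with the largest rise, largest fall, widest SD and highest signal, with 15 listed genes of histone processing and chaperoning or other variants. H2B, H1 and H4 genes with a level in 1 to 3 cells, the probes outside the histone names, and Cpsf3, Cabin1, Ubn2, Nap1l1, Rbbp4 and Acta2 were named after their values were seen. Members and lists were chosen with earlier results of these data known.

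A genotype was 1 sample, so no test was made, and differences of mean log2 are read beside the pooled SD of the cells in WT and KO. Runs of at least 20 shared bases joined probes into sets. Steps were tested on simulated data. The number of arrays limits the precision. Alternatives were the 75th percentile, no scaling, quantile normalization, normexp with an offset of 50, floors of 10 and 200, all probes of a gene, another detection call, only genes detected in a genotype, and leaving out each cell. The tools were R 4.3.3, limma 3.58.1, Python 3.11.15, matplotlib 3.10.9, pandas 2.3.3 and numpy 2.4.6.

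Probes well above background per array, which set the depth, numbered 11370 to 18175.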

Additional observations from a re-analysis of the deposited data

Results flagged for a closer look

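A cell was listed where its gap to the nearest of the 4 cells of its genotype, divided by their range, was above Dixon's critical value at the 95% level. Of 77 groups of 4 cells examined, 16 passed, and chance passes about 1 in 20. In 10 of the 16 the other 3 cells were at the floor of 5.64, so that the rule marks a gene with a level in 1 cell: Hist1h2ba at 10.73 in WT cell 2 and at 8.79 in KO cell 4, Hist1h2be at 5.69 in WT cell 1, Hist1h4h at 5.78 in WT cell 2 and at 5.93 in KO cell 1, Slbp at 10.41 in WT cell 4, Casp8ap2 at 7.74 in WT cell 4, Lsm10 at 13.04 in KO cell 4, Daxx at 5.74 in WT cell 1, and Cenpa at 9.82 in WT cell 4.

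In the other 6, H3f3a in KO cell 2 was at 13.95, below the other KO cells at 14.62 to 14.70. Hist1h3c in KO cell 1 was at 11.71, above the others at 10.42 to 10.60. Hist1h3f in WT cell 2 was at 7.45, above the others at 5.64 to 5.77. Hist1h2be in KO cell 4 was at 6.97, above 5.64 to 5.81. Asf1b in WT cell 4 was at 11.13, above 5.64 to 5.95, and Chaf1b in KO cell 3 was at 12.25, above 5.64 to 5.85.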

How the results depend on the processing

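No paired analysis was possible because a genotype is 1 sample, the replicate numbers name cells and not litters or embryos, and no result comes from a test. The median percentage of replication-dependent genes well above background moved from 45.7% to 60.9% with another detection call of the scanner software, to 37.1% with sets of shared probes counted once and to 34.2% without the H2A set. The variant class kept the higher percentage in 8 of 8 cells under these 3 settings and with all probes of a gene. Leaving out 1 cell cannot change a result that held in 8 of 8. The medians without any 1 cell stayed at 45.7% and 75%. Replication-dependent genes at least 5-fold apart numbered 0, 1 with a floor of 10 (Hist1h1a), and 0 to 8 without 1 cell, where the 8 are the H2A set without WT cell 3. Variants at least 5-fold apart numbered 0 to 1 without 1 cell. The median log2 difference stayed at 0.00 for the replication-dependent class without any 1 cell and ran from 0.00 to 0.46 for the variant class. The variant median was -0.05 with the 75th percentile and -0.08 with quantile normalization. The median over all genes moved to 0.22 with normexp, where the 2 classes had 0.21 and 0.16. For named genes, leaving out 1 cell cannot, by arithmetic, move a difference by more than the SD between cells, so that this rule decides nothing there. Many signs turned without 1 cell, among them the H2A set without WT cell 1, H2afv without WT cell 3, and Hist2h3b without KO cell 1. Hist1h2ag and Hist1h2an also turned without KO cell 1. The sign of H2afx, H2afy, H2afy2, H2afy3, H3f3b, Hist1h2ba, Hist1h4h, Hist1h4i, Hist1h4k and Asf1b turned as well, each without at least 1 of the cells. H3f3a, Hist1h3c and Hist1h3d kept their sign without any 1 cell. Under the other settings 20 of 315 values moved by more than the SD between cells. Among them was H3f3a, at 0.62 with the 75th percentile and 0.41 with quantile normalization. The settings with sets counted once or left out were chosen after seeing the data.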
